A study of Homo sapiens with 12 samples.

Results

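hsa_circ_0008494 and hsa_circ_0007883 are 2 of the 6384 circular RNAs (circRNAs) counted in RNA that was precipitated with an antibody against IGF2BP2 from breast cancer cells. They were chosen by their measured counts, because earlier results of these data showed more of them in the pulldown from BET inhibitor-resistant cells. Their levels in the resistant pulldown, and every comparison that uses it, are therefore given as descriptions without a test. The name circARID1A has been used for hsa_circ_0008494 after its reported host gene ARID1A, which encodes a subunit of SWI/SNF chromatin remodelling complexes. The deposited table gives no host gene for either circRNA, so that name could not be checked and both are called by their identifiers.

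MDA-MB-231 is an established triple-negative breast cancer line. The resistant line (Res) had acquired resistance to a BET inhibitor, which the labels do not name, and stayed on the inhibitor until harvest. The parental line (Sens) was untreated. Resistance and the presence of the drug therefore cannot be told apart. Each line was precipitated with an anti-IGF2BP2 monoclonal antibody (RIP) or with normal rabbit IgG as background, with 3 libraries for each of the 4 groups and 12 in all. Nothing in the labels says whether the resistant line is 1 clone, or whether replicates came from separate cultures, so the p-values measure a spread between libraries that may be technical. No library of unprecipitated RNA was analysed here. More of a circRNA in the cells and more of it bound to IGF2BP2 cannot be told apart.

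CircRNAs are closed loops made when the spliceosome joins a downstream splice site to an upstream one, and the lack of free ends protects them from exonucleases. IGF2BP2 is an RNA-binding protein that stabilises its target transcripts and promotes their translation, MYC mRNA among them. BET inhibitors displace bromodomain and extra-terminal proteins from acetylated chromatin and lower the transcription of genes such as MYC.

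The libraries held between 1960 and 8662 circRNA counts, and the Sens IgG libraries were the shallowest, at 1960 to 2989. ERCC spike-in transcripts, added at library preparation to purified RNA of equal amount, took 7.51% to 12.4% of all counts in RIP libraries and 93.5% to 97.9% in IgG libraries. Levels are given on 2 scales, as reads per 1000000 circRNA counts of the library (RPM) and as counts per 1000 ERCC counts. The second scale relates a circRNA to the RNA that entered the library, not to how much was precipitated. Errors written with ± are SDs (n = 3 libraries), standard errors are marked SE, and intervals and limits cover counting error only.

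In the pulldowns, both circRNAs were higher in Res than in Sens cells on both scales. hsa_circ_0008494 had 128, 140 and 92 counts in the 3 Res RIP libraries, against 33, 33 and 25 counts in the Sens RIP libraries. Scaled to circRNA totals, these were 22350, 16163 and 17764 RPM in Res RIP, against 5934, 6917 and 5621 RPM in Sens RIP. The lowest Res library lay 2.34-fold above the highest Sens library. The group means were 18759 ± 3212 RPM in Res RIP and 6157 ± 676 RPM in Sens RIP, a ratio of 3.05. In an edgeR fit over 1307 circRNAs, the log2 fold change, Res RIP over Sens RIP, was 1.53 (SE 0.23).

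hsa_circ_0007883 had 102, 166 and 97 counts in Res RIP, against 61, 47 and 29 counts in Sens RIP. Its levels were 17810, 19164 and 18729 RPM in Res RIP, against 10969, 9851 and 6520 RPM in Sens RIP. Again the groups did not overlap, and the lowest Res library lay 1.62-fold above the highest Sens library. The means of hsa_circ_0007883 were 18568 ± 691 RPM in Res RIP and 9113 ± 2315 RPM in Sens RIP, a ratio of 2.04. Its fitted log2 fold change was 0.95 (SE 0.22). Among the 1307 circRNAs with enough counts to be tested, 8.65% lay higher in Res RIP than in Sens RIP without overlap of the groups in RPM. Nothing is read from that share, because this comparison chose the members.

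**Figure D1:**
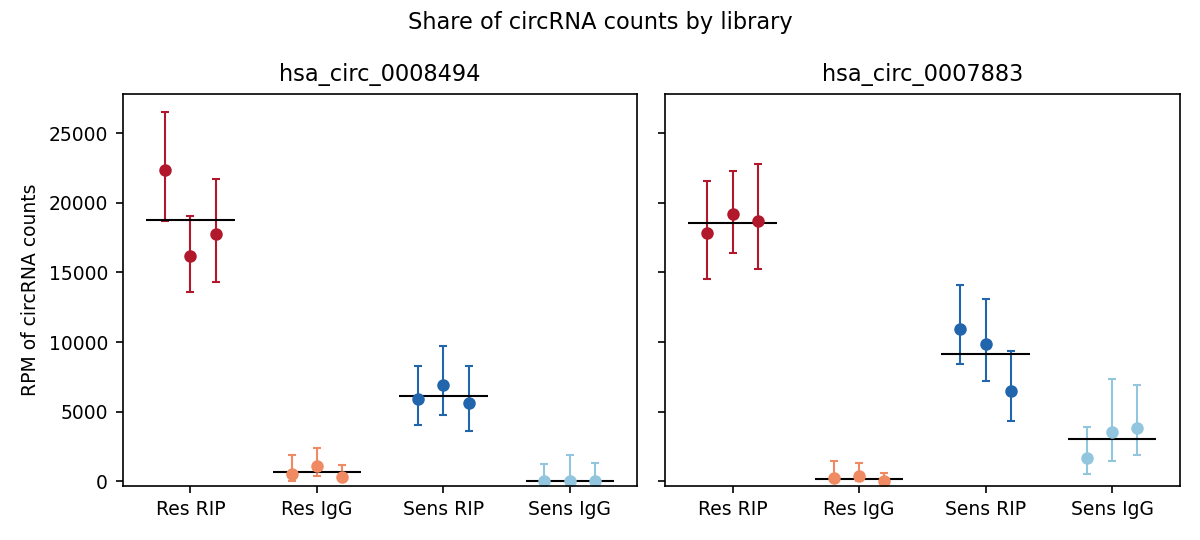
Level of each circRNA in RPM of circRNA counts (y axis) in the 12 libraries by group (x axis). Points are libraries with exact 95% binomial intervals, and lines are group means. Res RIP libraries lie between 16163 and 22350 RPM for hsa_circ_0008494 and between 17810 and 19164 RPM for hsa_circ_0007883, above all other groups.

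On the spike-in scale the difference between the pulldowns was wider. hsa_circ_0008494 had 183, 199 and 205 counts per 1000 ERCC counts in Res RIP, against 43.2, 48.8 and 47.3 in Sens RIP. The means were 195.8 ± 11.6 in Res RIP and 46.4 ± 2.90 in Sens RIP, a ratio of 4.22. hsa_circ_0007883 had 146, 236 and 217 counts per 1000 ERCC counts in Res RIP, against 79.8, 69.5 and 54.8 in Sens RIP. Its means were 199 ± 47.6 in Res RIP and 68.1 ± 12.6 in Sens RIP, which is 2.93-fold. The groups of both circRNAs stayed apart on this scale, on which 12.6% of tested circRNAs lay higher in Res RIP without overlap. All circRNA counts together also stood higher against the spike-in in the Res pulldown, at 10688 ± 2204 per 1000 ERCC counts, against 7582 ± 724 in the Sens pulldown, a ratio of 1.41.

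**Figure D2:**
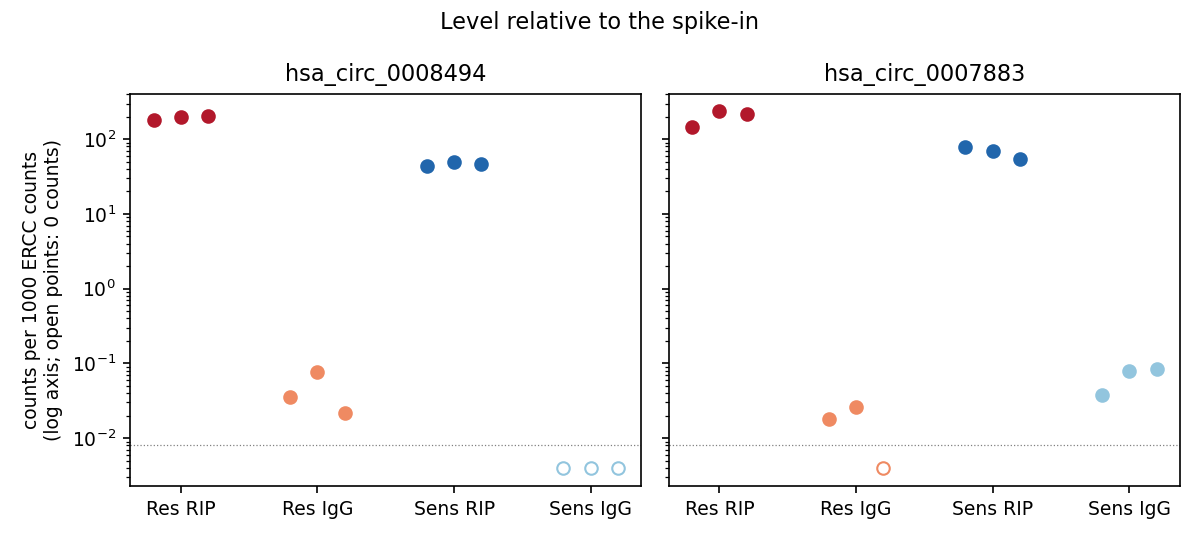
Counts per 1000 ERCC counts (y axis, log scale) of each circRNA in the 12 libraries by group (x axis). Open points under the dotted line are libraries with 0 counts and have no place on the axis. RIP libraries range from 43.2 to 236, and IgG libraries are all at or under 0.0848.

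One other circRNA weighed on the totals. hsa_circ_0001573, named here after its values were seen, took 0.106% of the circRNA counts in Res RIP and 11.7% in Sens RIP. With it left out of the totals, hsa_circ_0008494 had 18779 ± 3218 RPM in Res RIP and 6970 ± 765 RPM in Sens RIP, a ratio of 2.69. For hsa_circ_0007883 the values were 18588 ± 688 RPM in Res RIP and 10317 ± 2622 RPM in Sens RIP, a ratio of 1.80. Neither circRNA's groups overlapped there.

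Both circRNAs stood near the top of the Res pulldown. hsa_circ_0007883, with 365 summed counts, was in position 2 and hsa_circ_0008494, with 360, in position 3 of the 4274 circRNAs detected there. Position 1 belonged to hsa_circ_0006156, with 522 counts, and position 4 had 285. The 2 circRNAs differed from each other by less than the spread between libraries, and each was first of the pair in at least 1 of the 3 libraries. All Res RIP values of hsa_circ_0006156, from 26067 to 27245 RPM, lay above both. The circRNA in position 4 ranged from 11891 to 16799 RPM and so reached into the range of hsa_circ_0008494 but not of hsa_circ_0007883. Together the pair made up 3.71% of the Res RIP counts.

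In the Sens pulldown they stood lower in the order. hsa_circ_0007883 shared position 7 with 1 other circRNA at 137 summed counts, and hsa_circ_0008494 was in position 14 with 91, of 3487 detected. Their ranges did not part them cleanly from each other, at 6520 to 10969 RPM for hsa_circ_0007883 and 5621 to 6917 RPM for hsa_circ_0008494. The pair made up 1.54% of the Sens RIP counts. By the difference of mean RPM, Res RIP minus Sens RIP, hsa_circ_0008494 (12602 RPM) and hsa_circ_0007883 (9455 RPM) were the first and second of the 1307 tested. By ratio they were less extreme. Among the 145 circRNAs with at least 50 counts over the 12 libraries and a count in both pulldowns, hsa_circ_0008494 was in position 13 and hsa_circ_0007883 in position 28, and the median ratio was 1.10.

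**Figure D3:**
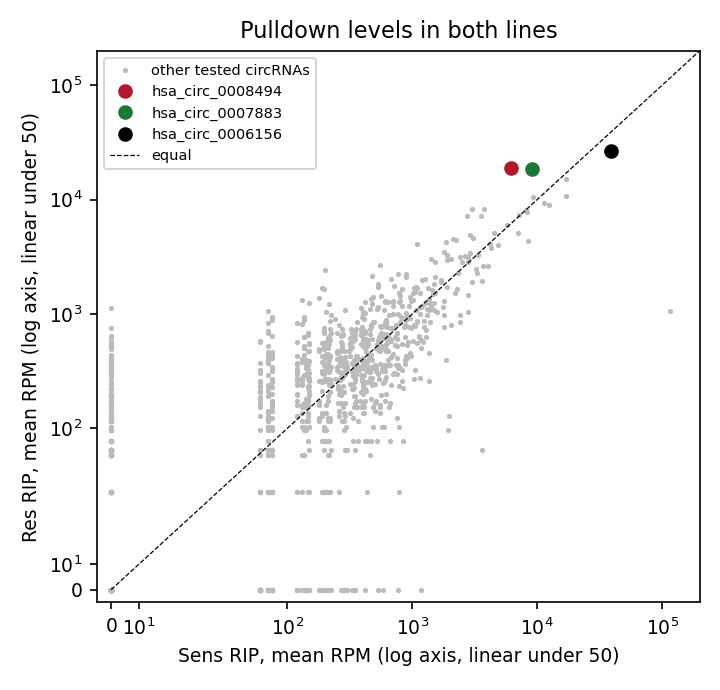
Mean level of the 1307 tested circRNAs in Res RIP (y axis) against Sens RIP (x axis), in RPM on log axes that are linear under 50. Both circRNAs lie above the dashed line of equal levels, at 18759 and 18568 RPM in Res RIP, and hsa_circ_0006156 lies below it. The point far to the right is hsa_circ_0001573.

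Ratios of counts within a library need no scaling. Against hsa_circ_0006156, hsa_circ_0008494 had a ratio of 0.848, 0.593 and 0.681 in Res RIP, against 0.152, 0.213 and 0.126 in Sens RIP. The means were 0.707 ± 0.129 in Res RIP and 0.164 ± 0.0445 in Sens RIP, 4.32-fold apart. For hsa_circ_0007883 the same ratio was 0.675, 0.703 and 0.719 in Res RIP, against 0.281, 0.303 and 0.146 in Sens RIP. Its means were 0.699 ± 0.0218 in Res RIP and 0.244 ± 0.0848 in Sens RIP, 2.87-fold apart. These ratios contain a change of the denominator, since hsa_circ_0006156 itself was 0.687 times as high in Res RIP (26560 ± 613 RPM) as in Sens RIP (38675 ± 6021 RPM). Between the pair, the ratio of hsa_circ_0008494 to hsa_circ_0007883 was 1.25, 0.843 and 0.948 in Res RIP, against 0.541, 0.702 and 0.862 in Sens RIP. The lines overlapped in that ratio.

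**Figure D4:**
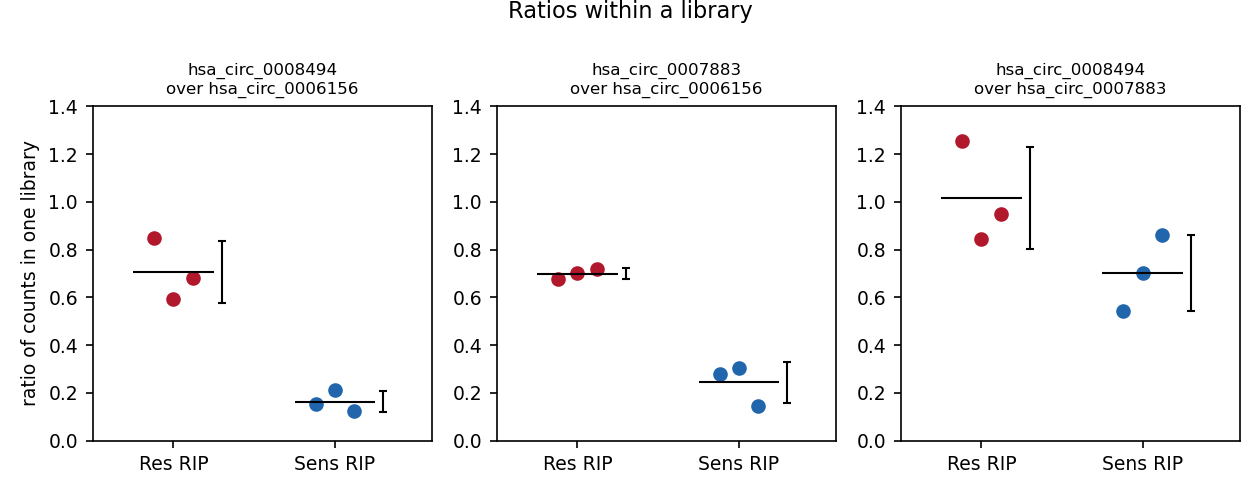
Ratio of the counts of 2 circRNAs in the same library (y axis) in the Res and Sens pulldowns (x axis). Points are libraries, lines are means and bars are SDs over 3 libraries. The lines separate in both ratios to hsa_circ_0006156 and overlap in the ratio between the pair.

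The IgG background of the 2 circRNAs differed. hsa_circ_0008494 had 2, 6 and 2 counts in Res IgG, against 0 counts in each Sens IgG library. That was 654 ± 408 RPM in Res IgG, and 0 of 7794 counts in Sens IgG. If counts are independent draws, which was not tested, 0 allows up to 385 RPM. The observed Res IgG mean was 1.70-fold above that limit in RPM and 5.30-fold above the matching limit per ERCC count. These are no lower bounds, since the counting error of the 10 Res IgG counts is left out. The 2 ratios also hang on single libraries, since they were 1.10-fold and 3.40-fold without Res IgG replicate 2, which holds 6 of the 10 counts. Without Sens IgG replicate 1 they were 1.05-fold and 3.29-fold, and without Sens IgG replicate 3 they were 1.08-fold and 3.35-fold. hsa_circ_0007883 went the other way, with 1, 2 and 0 counts in Res IgG, against 5, 7 and 11 counts in Sens IgG. Its levels were 210 ± 190 RPM in Res IgG and 3037 ± 1191 RPM in Sens IgG. The ratio of summed counts, Res over Sens IgG, was 0.0665 (exact 95% interval 0.0128 to 0.220) on circRNA totals and 0.205 (exact 95% interval 0.0394 to 0.678) on ERCC totals. On circRNA totals it was 0.0342 without Res IgG replicate 2 and 0.110 without Res IgG replicate 3.

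Such differences between the IgG groups were seen for many tested circRNAs. In RPM, 44.7% of the tested circRNAs lay higher in Res IgG and 20.4% lower in Res IgG without overlap. These shares are partly set by the filter. It kept some circRNAs through Res IgG counts alone or Sens IgG counts alone, and the IgG groups of those cannot overlap. How usual such a difference is apart from the filter was not tested. The IgG libraries of a line also held largely the same circRNAs, with 79.6% to 82.5% of those seen in either of 2 Res IgG libraries seen in both and 81.6% to 87.0% for Sens IgG. In RIP libraries these shares were 28.6% to 31.2% for Res and 25.1% to 27.4% for Sens. The part of that structure in the IgG values of the 2 circRNAs was not tested.

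Enrichment by the antibody was tested in parental cells only, because the contrast itself holds no Res libraries. The scaling, filter and spread of the fit did come from all 12 libraries. The Sens libraries of the contrast also entered comparisons that chose the members for lower values in Sens. The test is therefore not independent of the choice. Both circRNAs were higher in Sens RIP than in Sens IgG. hsa_circ_0008494 had 91 summed counts in Sens RIP and 0 in Sens IgG (edgeR quasi-likelihood test, adjusted p = 7.48e-41). Its observed Sens RIP mean was 16.0-fold above the limit for 0 counts in RPM and 5471-fold above the matching limit per ERCC count. Here too these are no lower bounds, since the counting error of the 91 counts is left out. The RPM ratio to the limit was 9.86-fold without Sens IgG replicate 1 and 10.2-fold without Sens IgG replicate 3. hsa_circ_0007883 had 9113 ± 2315 RPM in Sens RIP and 3037 ± 1191 RPM in Sens IgG, a ratio of 3.00. Its lowest RIP library lay 1.69-fold above its highest IgG library. On the spike-in scale the ratio was 1021, against 344 for all circRNA counts together. The fitted log2 fold change of hsa_circ_0007883 was 3.64 (SE 0.30, edgeR adjusted p = 4.36e-31), and for each circRNA all 3 RIP libraries exceeded the highest IgG library, as in RPM they did for 22.0% of the tested circRNAs.

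These 2 calls stand against a background in which 39.8% of the 1307 tested circRNAs were called higher in Sens RIP, with a median log2 fold change of 2.44. The 1307 include circRNAs with no count in either Sens group, which the filter kept through Res libraries and which could not be called. Among circRNAs with Sens counts, this share and the 22.0% without overlap would be higher. The split of calls depended on scaling. It was 520 higher and 134 lower here, 164 and 269 with circRNA totals, 314 and 237 with DESeq2 size factors, and 855 and 0 with ERCC totals (edgeR; 0 lower at an unadjusted p under 0.05). The fit scales libraries by TMM (trimmed mean of M-values), and with circRNA totals in its place the log2 fold change of hsa_circ_0007883 was 1.62 (edgeR adjusted p = 4.86e-06), below that fit's median of 1.84 over all tested circRNAs. With TMM it was 2.98 without Sens IgG replicate 1 and 3.05 without Sens RIP replicate 1. Leaving out Res IgG replicate 3, which is outside the contrast, gave 3.20.

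Enrichment in resistant cells is a description. hsa_circ_0008494 had 18759 ± 3212 RPM in Res RIP and 654 ± 408 RPM in Res IgG, 28.7-fold apart, or 44.2-fold without Res IgG replicate 2. For hsa_circ_0007883 the 365 summed counts in Res RIP stood against 3 in Res IgG, a ratio of 95.1 (exact 95% interval 32.3 to 463) on circRNA totals. It was 185 without Res IgG replicate 2 and 57.6 without Res IgG replicate 3. The groups of both were apart, which in RPM held for 24.6% of the tested circRNAs in the direction of higher Res RIP. The tested circRNAs include some with no count in either Res group, which lowers that share. Per ERCC count the ratio was 4357 for hsa_circ_0008494 and 14786 for hsa_circ_0007883 (exact 95% interval 5020 to 72029), against 157 for all circRNA counts together.

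Set side by side, the enrichments of hsa_circ_0007883 were 95.1-fold in Res (summed counts) and 3.00-fold in Sens (group means) on circRNA totals. Its summed IgG counts, 3 in Res and 23 in Sens, enter that gap more than the pulldown levels do. The IgG level was 15.0-fold higher in Sens (summed counts), and the pulldown level was 2.04-fold higher in Res. For hsa_circ_0008494 the enrichments were 28.7-fold in Res and at least 16.0-fold in Sens on circRNA totals, which leaves the direction of the difference undetermined. Per ERCC count they were 4357-fold in Res and at least 5471-fold in Sens. The Res value rests on 10 IgG counts and was 6795-fold without Res IgG replicate 2, above the Sens bound. That bound was itself 3398-fold without Sens IgG replicate 1 and 3463-fold without Sens IgG replicate 3, so the order on that scale rests on single libraries.

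The submitters defined a delta enrichment as RIP minus IgG in Res minus the same in Sens, a difference and not a ratio. It was 11948 RPM for hsa_circ_0008494 (SE 1909), from an enrichment of 18105 RPM in Res and 6157 RPM in Sens. For hsa_circ_0007883 it was 12282 RPM (SE 1559), from 18358 RPM in Res and 6077 RPM in Sens. Of the delta of hsa_circ_0007883, 77.0% came from the pulldowns and the rest from the IgG libraries, which added 2827 RPM. The IgG part of the delta of hsa_circ_0008494 was -654 RPM. Per 1000 ERCC counts the delta was 149 (SE 6.92) for hsa_circ_0008494, with an IgG part of -0.0449. It was 131 (SE 28.4) for hsa_circ_0007883, with an IgG part of 0.0521. The median delta over the 1307 tested circRNAs was -262 RPM, and 41.5% were above 0. Per 1000 ERCC counts the median was 0.475, and 62.1% were above 0.

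Over the 12 libraries, 73.4% of the summed RPM of hsa_circ_0008494 fell in Res RIP and 24.1% in Sens RIP, while Res IgG held 2.56% and Sens IgG 0%. For hsa_circ_0007883 Res RIP held 60.0% and Sens RIP 29.5%, while Res IgG held 0.679% and Sens IgG 9.82%. Likeness was measured as the overlap of 2 such profiles over the single libraries, in percent, among 152 circRNAs with at least 50 counts. It is a description over libraries of 4 groups and says nothing of shared function or control. The profile of hsa_circ_0008494 was most like those of hsa_circ_0007132 (92.4%) and hsa_circ_0007476 (92.3%), against a median of 47.7%. hsa_circ_0007132 had 135 summed counts in Res RIP and 40 in Sens RIP, with 4 in Res IgG and 0 in Sens IgG. hsa_circ_0007476 had 156 in Res RIP and 44 in Sens RIP, with 11 in Res IgG and 0 in Sens IgG. Both thus had no counts in Sens IgG, as hsa_circ_0008494 did. Over all circRNAs that absence was common, since 475 of the 6384 had a count in Sens IgG. Most circRNAs had few counts, so that share does not tell how common the absence is at like abundance. The pulldown ratios, Res over Sens in RPM, were 2.59 for hsa_circ_0007132 and 2.74 for hsa_circ_0007476.

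hsa_circ_0007883 was most like hsa_circ_0000418 (86.6%) and hsa_circ_0006117 (85.8%), with hsa_circ_0008494 next at 84.5%, against a median of 54.1%. hsa_circ_0000418 had 89 summed counts in Res RIP and 31 in Sens RIP, and hsa_circ_0006117 had 81 in Res RIP and 28 in Sens RIP. Neither had a count in any IgG library, so the Sens IgG signal of hsa_circ_0007883 was not shared by its closest profiles. hsa_circ_0006156 overlapped less, at 62.2% with hsa_circ_0008494 and 70.2% with hsa_circ_0007883.

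**Figure D5:**
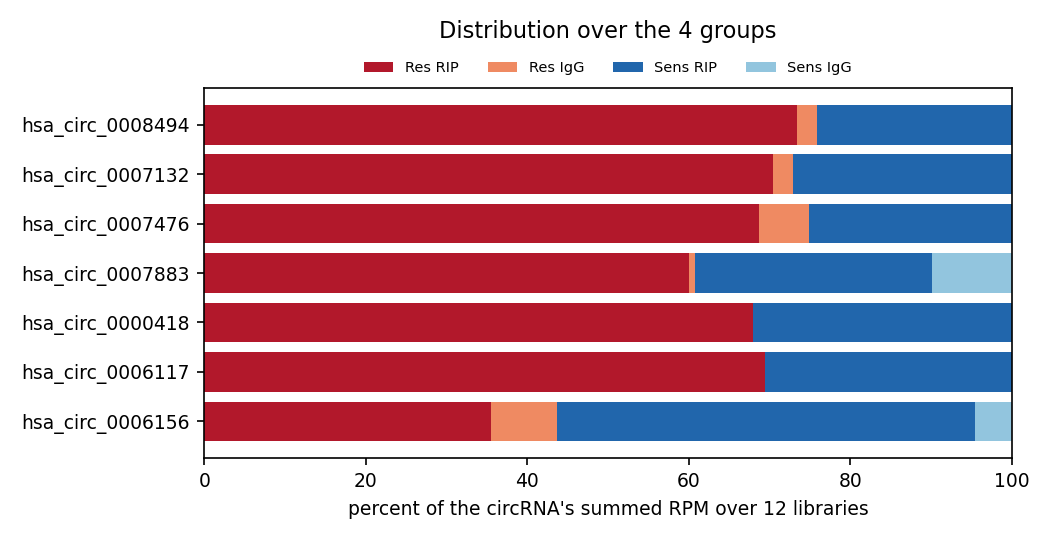
Percent of each circRNA's summed RPM over the 12 libraries (x axis) that fell in each group (colours), for the 2 circRNAs, the 2 most similar to each and hsa_circ_0006156. Res RIP holds 60.0% to 73.4% for the first 6 and 35.5% for hsa_circ_0006156.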

How the data were processed

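The authors deposited raw counts per circRNA and per ERCC transcript, in a table with 57 ERCC rows. The authors scaled their data to the spike-in with RUVSeq, per the labels' protocols, which the values in the table do not show. The build is GRCh37 per the submitters' processing notes; the aligner, circRNA caller and counting rule are not given in the sources used here. ERCC rows entered neither library sizes nor tests. Of the identifiers, 0 matched the gene table.

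Groups came from the sample titles. The filter asked for 2 or more counts in 3 or more libraries and left 1307 circRNAs, which went into edgeR 4.0.16 (R 4.3.3; TMM, quasi-likelihood, all 12 libraries in 1 fit, Benjamini-Hochberg over all tested, threshold 0.05). The test was first tried on simulated data. The prior degrees of freedom were infinite, so spread was pooled over circRNAs. SEs of log2 fold changes are their size divided by the root of the F statistic. The tested comparison was Sens RIP against Sens IgG. A fold against a group at 0 uses 3 counts over the group and leaves out the counting error of the other group. With 1 to 3 counts an exact interval is given. All 12 pairs of libraries within a group differed beyond sampling noise by a chi-square test over circRNAs with at least 5 counts in the pair (highest p = 0.000231). Over circRNAs with at least 10 counts 11 pairs did and Sens RIP replicates 2 and 3 did not; they were kept as separate libraries. The members and lists were chosen with earlier results of these data known. The named circRNAs are the members, the 2 closest profiles to each and hsa_circ_0006156. Alternatives were other scalings, DESeq2 1.42.0, limma-voom (limma 3.58.1), other filters, the replicate number as a block, summed IgG libraries and leaving out each library.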

Additional observations from a re-analysis of the deposited data

How the results depend on the processing

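Calls and fitted log2 fold changes here are those of the fits, and the cause of each shift was not tested. No fitted log2 fold change and no delta of the 2 circRNAs changed sign. The Res enrichment ratio of hsa_circ_0008494 per ERCC count did move from below to above its Sens ratio to the limit for 0 counts with single libraries left out. The constant sign of its fitted change in enrichment therefore does not settle that order. The balance of calls over all circRNAs did turn, at 520 higher and 134 lower in the main setting, against 164 and 269 with circRNA totals and 154 and 271 with hsa_circ_0001573 left out of them. The Sens enrichment of both circRNAs stayed past the threshold in all 23 alternatives each, with adjusted p of at most 3.17e-07 for hsa_circ_0008494 and 1.24e-05 for hsa_circ_0007883. The Sens enrichment calls over all circRNAs were 654 of 1307 tested in the main setting. With the same 1307 they were 433 with circRNA totals, 235 with DESeq2 and 1155 with limma-voom. They were 404 with each line's IgG counts pooled into 1 sample that was taken to vary as RIP libraries do. With hsa_circ_0001573 left out of circRNA totals, an alternative chosen after seeing the data, they were 425. Other filters gave 380 of 6384 tested with no filter and 86 of 111 with at least 10 counts in 3 libraries. Leaving out 1 library gave 372 to 631, but the filter was applied anew each time, so the number tested changed too. The calls were 631 of 986 without Res IgG replicate 1, 372 of 1193 without Sens IgG replicate 1 and 379 of 1191 without Sens IgG replicate 3.

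Res enrichment of hsa_circ_0008494 (5.74) was 4.78 with circRNA totals, 12.02 with ERCC totals, 8.59 with all counts of the column, 5.00 with DESeq2 size factors in edgeR, 5.05 with DESeq2, 4.40 with the stricter filter and 4.78 with hsa_circ_0001573 left out. That of hsa_circ_0007883 (7.33) was 6.39, 13.60, 10.16, 6.61, 6.78, 6.03 and 6.38 in the same settings. The change between pulldowns of hsa_circ_0008494 (1.53) was 2.08 with ERCC totals, 1.82 with DESeq2 size factors and 1.83 with DESeq2, and that of hsa_circ_0007883 (0.95) was 1.54 with ERCC totals. The IgG change of hsa_circ_0007883 (-2.75) was -3.75 with circRNA totals, -2.09 with ERCC totals, -3.59 with the stricter filter and -3.97 with hsa_circ_0001573 left out. Its change in enrichment (3.69) was 4.76 with circRNA totals and 4.81 with hsa_circ_0001573 left out. For hsa_circ_0008494, whose Sens IgG libraries are at 0 so that these fitted values are no bounds, the IgG change (4.45) was 2.77 with limma-voom. Its change in enrichment (-2.92) was -2.12 with ERCC totals, -2.08 with DESeq2, -1.26 with limma-voom and -3.52 with the stricter filter. The delta of hsa_circ_0008494 was 149.3 per 1000 ERCC counts, and that of hsa_circ_0007883 was 131.4 per 1000 ERCC counts and 8963 RPM with all counts of the column as denominator.

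Without 1 library, hsa_circ_0008494 ranged from 8.30 to 8.53 for Sens enrichment, 5.17 to 6.32 for Res enrichment, 1.51 to 1.96 between pulldowns, 3.81 to 4.88 between IgG groups, -3.13 to -2.12 for the change in enrichment and 10152 to 13246 RPM for the delta. hsa_circ_0007883 ranged from 2.98 to 3.50, 6.49 to 8.04, 0.93 to 1.48, -3.52 to -2.13, 3.29 to 4.62 and 10985 to 13210 RPM. The main Sens enrichments, 8.66 for hsa_circ_0008494 and 3.64 for hsa_circ_0007883, lay above their whole ranges. Each such fit applied the filter and TMM anew, so its shift is not the weight of the left-out library alone. The Res enrichment of hsa_circ_0007883 was 8.04 without Res IgG replicate 2 and 6.49 without Res IgG replicate 3. Same-numbered libraries of different groups had correlations of deviations between -0.0521 and 0.0503, and 0 of 18 passed 0.1. Most circRNAs had few counts, so low correlations cannot exclude that the replicate numbers pair the libraries. With the replicate number as a block the Sens enrichments were 8.66 and 3.62 and 445 circRNAs were called; it changed no call of the 2 circRNAs. In the IgG libraries 1 count is 166 to 510 RPM, which limits every IgG value.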

Other observations

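The 2 scales gave opposite orders of replicate spread in the Res pulldown. hsa_circ_0008494 varied by 17.1% (SD over mean) in RPM and by 5.94% per ERCC count, while hsa_circ_0007883 varied by 3.72% in RPM and by 23.8% per ERCC count. Counting alone gives an SD of 1705 RPM for hsa_circ_0008494 in Res RIP, against 3212 RPM observed, and 1717 RPM for hsa_circ_0007883, against 691 RPM observed. With 3 libraries these spreads are themselves imprecise.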
